A study of Mus musculus with 6 samples.

Results

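The COP9 signalosome subunits are the 9 genes Gps1, Cops2, Cops3, Cops4, Cops5, Cops6, Cops7a, Cops7b and Cops8. They were chosen by name as the subunits of 1 protein complex, and each was read from the brightest probe set that the platform annotation gives to its symbol. All 9 were measured, among 19505 genes in all, and each had 1 probe set. RNA was profiled on 6 arrays of CD4+YFP+ Treg cells, the suppressive subset of CD4+ T lymphocytes, sorted from peripheral lymph nodes and spleens of female mice aged 8 to 12 weeks. The control group was Foxp3 Cre/wt, and the Rbx1&Sag-deficient group had the same Foxp3 alleles together with Rbx1 fl/fl and Sag fl/fl, with 3 arrays each. Both groups carry 1 Foxp3 allele that drives a YFP-Cre fusion. Foxp3 lies on the X chromosome, so these females also keep Treg cells without Cre, which the YFP sort leaves out, and the deficient females were free of inflammation. Each array held RNA pooled from 2 to 3 mice, so a p-value here measures the spread between pools.

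The COP9 signalosome removes NEDD8, a ubiquitin-like protein, from cullins. NEDD8 switches on the cullin-RING ubiquitin ligases, whose RING subunits are Rbx1 and Sag, and its removal lets a ligase exchange its substrate receptor. Cops5 holds the metalloprotease site in an MPN domain and pairs with Cops6, an MPN protein without that site, while the remaining subunits carry a PCI domain and form the scaffold. Cops7a and Cops7b are alternative forms of the same scaffold position. In mice, loss of Cops8 from T cells disturbs peripheral T cell homeostasis.

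The targeted genes and the cells were checked first. Rbx1 was at 9.26, 10.08 and 9.80 in the control arrays and at 5.04, 5.53 and 5.84 in the deficient arrays, in log2 signal. It fell by 4.24 on the log2 scale (SE 0.30, n = 3 per group, limma with Benjamini-Hochberg adjustment, adjusted p = 0.000237). Rnf7, the gene of Sag, was at 11.47, 11.29 and 10.93 in the control arrays and at 10.94, 11.39 and 9.65 in the deficient arrays, with a difference of -0.57 (SE 0.41, adjusted p = 0.379). The groups overlapped for Rnf7, and no source used here says whether its probe set lies in the deleted part, so it does not check that deletion. Every sample title carries the word muscle although the labels give Treg cells. The 5 skeletal muscle markers had list means of 3.65 to 3.94 on every array against array medians of 4.0 to 4.32. Ckm was above the array median on every array, at 4.57 to 5.15, and Tnnt3 ran from 3.99 to 5.05. None of the 5 passed the test between groups, which cannot check the tissue because both groups carry the word. The 6 measured Treg and T cell markers averaged 15.4 to 15.7 in controls and 14.5 to 14.8 in deficient arrays. Foxp3 itself was not analysed here. In the deficient cells Cd4 fell by 1.07, Cd3g fell by 0.74 and Ikzf2 fell by 1.54 on the log2 scale, and none of these markers rose. Across genes, the control arrays correlated with each other at r = 0.992 to 0.993 and the deficient arrays at 0.976 to 0.983, so the deficient pools were the more variable.

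Promoter sequences are shown for the subunits that fell and for the one that went the other way. Each window below runs from 250 bases before to 50 bases after the RefSeq start site on assembly GRCm38.p6, 5′ to 3′ on the gene's strand. Capitals mark CCGGAAG, a core sequence of ETS family sites, or its reverse complement. Gps1, Cops7a and Cops7b were called lower, and Cops8 was the member with a positive difference. For Gps1 and Cops7a the first of their RefSeq starts is shown. The windows are at chr11:120784020-120784319 (plus strand) for Gps1, chr6:124965463-124965762 (minus) for Cops7a, chr1:86582671-86582970 (plus) for Cops7b and chr1:90603175-90603474 (plus) for Cops8.
Gps1: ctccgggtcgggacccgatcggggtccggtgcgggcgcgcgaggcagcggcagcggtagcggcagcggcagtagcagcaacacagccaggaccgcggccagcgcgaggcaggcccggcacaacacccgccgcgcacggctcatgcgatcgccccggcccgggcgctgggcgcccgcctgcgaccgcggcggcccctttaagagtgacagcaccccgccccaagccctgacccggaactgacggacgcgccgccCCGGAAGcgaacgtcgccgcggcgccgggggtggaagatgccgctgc
Cops7a: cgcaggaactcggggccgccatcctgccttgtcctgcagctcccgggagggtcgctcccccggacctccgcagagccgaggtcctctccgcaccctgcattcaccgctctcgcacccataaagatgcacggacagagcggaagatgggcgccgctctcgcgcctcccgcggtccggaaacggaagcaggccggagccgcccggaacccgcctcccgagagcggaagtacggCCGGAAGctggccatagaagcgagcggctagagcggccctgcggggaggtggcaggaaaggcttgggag
Cops7b: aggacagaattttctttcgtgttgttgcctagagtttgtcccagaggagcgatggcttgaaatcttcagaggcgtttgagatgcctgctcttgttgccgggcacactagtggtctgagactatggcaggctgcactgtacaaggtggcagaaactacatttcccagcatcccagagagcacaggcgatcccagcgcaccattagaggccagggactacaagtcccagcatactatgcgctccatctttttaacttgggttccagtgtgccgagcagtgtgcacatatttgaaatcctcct
Cops8: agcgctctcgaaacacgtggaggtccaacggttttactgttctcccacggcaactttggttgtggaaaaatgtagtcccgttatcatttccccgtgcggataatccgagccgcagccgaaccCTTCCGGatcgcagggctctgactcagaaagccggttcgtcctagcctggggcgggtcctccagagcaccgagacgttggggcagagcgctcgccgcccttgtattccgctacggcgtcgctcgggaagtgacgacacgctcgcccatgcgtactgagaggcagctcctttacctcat

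Among the 8 subunits with a window (Cops5 had none in the table), 5 held CCGGAAG on either strand. By window this was 6 of their 10 windows, against 8.86% of all 32851 windows, and both Gps1 windows overlap and hold the same match. Counted from the start site, the match began at base 4 in Gps1, at -9 in Cops2 and at -19 in Cops7a. On the other strand it lay at -156 in Cops3 and at -128 in Cops8. The GC box GGGCGG was in windows of Gps1, Cops4, Cops6, Cops7a and Cops8, in 7 of the 10 windows, against 35.7% of all windows. In the first Gps1 window a GC box on the other strand shares 1 base, the first, with the CCGGAAG match. CCAAT was found in Cops4 and CACGTG, an E-box, in Cops7a (second start) and Cops8, against 37.4% and 7.15% of windows. No subunit held TGACGTCA, the cyclic AMP response element, or TATAAA, which were in 1.79% and 13.6% of windows. Cops7b, which was called lower, held none of these letters, and its window had 51% G and C. The Gps1 windows had 77% and 80%, those of the remaining subunits 53.3% to 72.7%, and the median window 52.7%. Shares of matches among windows of like G and C were not computed, so no excess of matches is read from these counts. CCGGAAG was present both in Gps1 and Cops7a, which were called lower, and in Cops8, which was not. These matches describe letters in a window and were not tested for use by any factor.

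**Figure D1:**
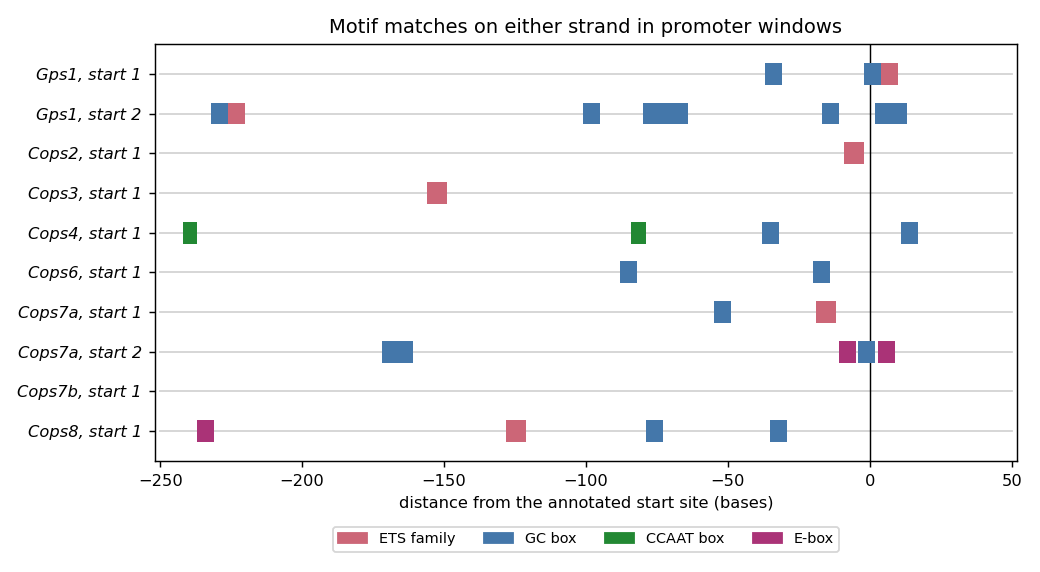
Position of each motif match in the promoter windows of the 8 subunits with a window, in bases from the RefSeq start site on GRCm38.p6, with 1 line per window. Matches to the ETS core appear in 5 subunits, and Cops7b shows no match to any of the 6 motifs.

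On the deposited values, 3 of the 9 subunits were called lower in the Rbx1&Sag-deficient Treg cells. Quantile normalization, cyclic loess and centring on the brighter genes brought this count to 0, whereas median centring of the arrays gave 4. Gps1, Cops7a and Cops7b fell to 45.0%, 44.8% and 47.6% of their control levels, and no subunit rose. Cops2, Cops3, Cops4, Cops5 and Cops6 had negative differences that did not pass, and Cops8 had a positive one that did not pass. The median difference over the 9 subunits was -0.81 on the log2 scale, beside 0.04 over all genes and -0.40 over the 9747 genes brighter than the median gene. At an adjusted p under 0.05 in limma, 9.49% of all genes were called lower and 2.7% higher, and 18.3% of the brighter genes were called lower. In 6 of the 9 subunits every deficient array was below every control array, which was the case for 19.7% of all genes and for 35.7% of the brighter ones. In no subunit was every deficient array above every control array, the pattern of 15.2% of all genes and of 8.48% of the brighter ones. With an unadjusted p under 0.05 and a change of more than 1.5-fold, 4 subunits were lower and none was higher, against 18.1% and 9.73% of all genes. Among the brighter genes these shares were 34.4% and 7.8%. Every subunit was above the array median on every array. In sorted cells of this kind, fewer cells with the RNA and less RNA per cell cannot be told apart.

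The size of these differences depended on how the arrays were scaled. The deposited values had a lower upper quartile in the deficient arrays (6.93 to 7.37) than in the control arrays (7.68 to 7.81), and the array medians lay the other way (4.13 to 4.32 against 4.0 to 4.11). After quantile normalization on top of the deposited values the median difference of the 9 subunits was -0.24 and none was called, while 7 of 9 differences stayed negative. Cyclic loess gave -0.27 and also no call. Centring each array on its brighter genes gave -0.22, no subunit lower and Cops8 higher, with 4.67% of all genes lower and 35.7% higher. Centring on the array median gave -1.0 and 4 subunits lower, with 12.8% of all genes lower and 1.43% higher. These 2 centrings moved the median of all genes from 0.04 to 0.64 and to -0.14, and they shift every gene alike.

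The median of the 9 subunits' deviations from their control means was -0.98, -0.41 and -1.18 on deficient replicates 1, 2 and 3. Replicate 3 was the lowest of the 6 arrays for 6 of the 9 subunits, and on it all 9 lay below their lowest control. On replicate 1 there were 8 such subunits and on replicate 2 there were 6. The upper quartile of all probe sets was also lowest on deficient replicate 3, at 6.93, beside 7.11 and 7.37 on deficient replicates 1 and 2. In control arrays it was 7.68 to 7.81. Shares over all genes were not computed for these counts, so they are not read as a result about the subunits.

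**Figure D2:**
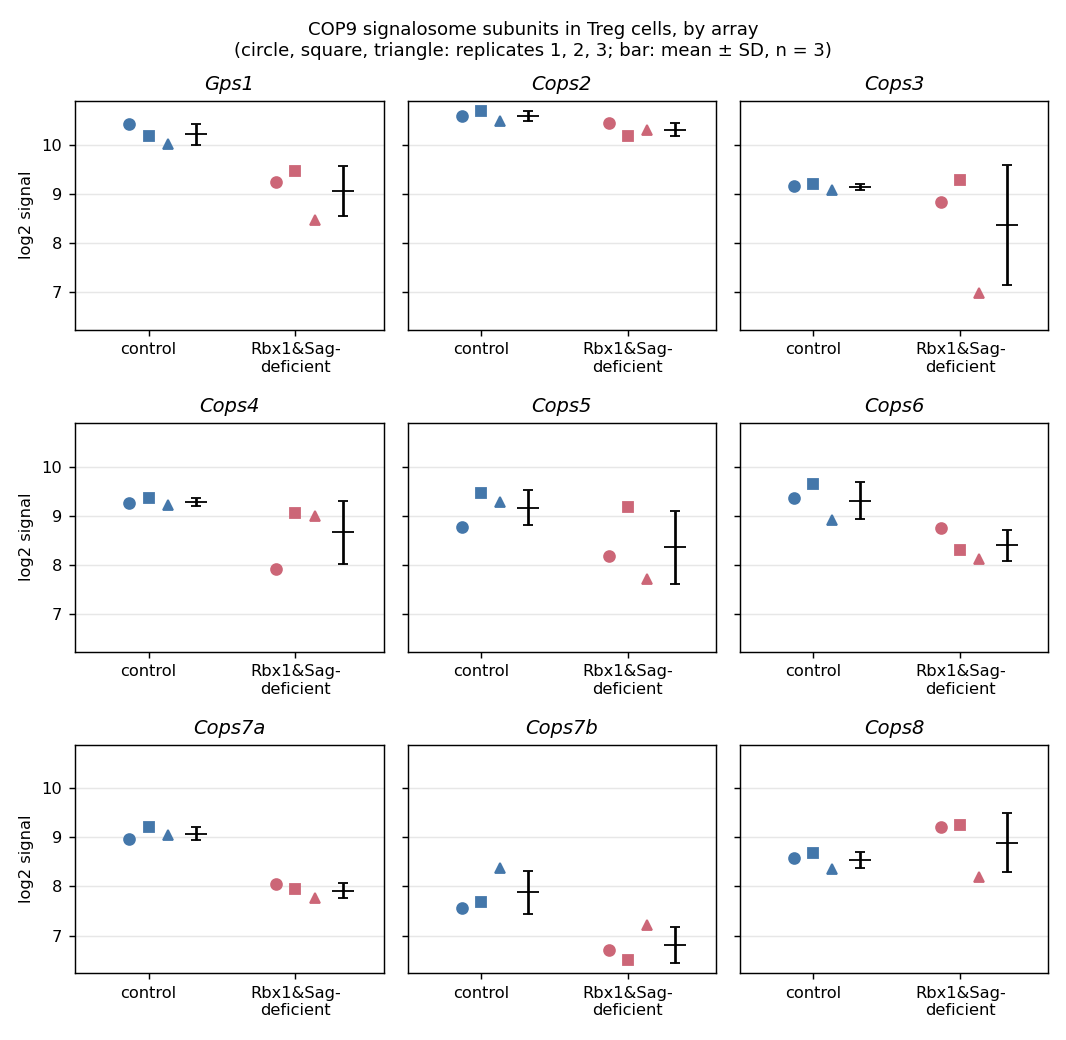
Deposited log2 signal of each COP9 signalosome subunit on the 3 control and 3 Rbx1&Sag-deficient arrays, with each group's mean as a bar. The deficient arrays lie below all controls in 6 subunits, and Cops8 is higher on deficient replicates 1 and 2 and lower on replicate 3.

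Cops5, the subunit with the metalloprotease site, was at 8.76, 9.46 and 9.27 in control arrays and at 8.17, 9.17 and 7.71 in deficient arrays. Its groups overlapped because deficient replicate 2 was above control replicate 1. The difference was -0.81 on the log2 scale (SE 0.37, 95% interval -1.65 to 0.03, adjusted p = 0.177, limma), and the limma fit depended on the array left out. It gave -1.22 without deficient replicate 2 (adjusted p = 0.0244) and -0.49 without deficient replicate 3 (adjusted p = 0.387). Cops6, its partner, was at 9.35, 9.65 and 8.91 in control arrays and at 8.75, 8.30 and 8.12 in deficient arrays. Every deficient array was below every control array, with a difference of -0.91 (SE 0.27, 95% interval -1.53 to -0.30, adjusted p = 0.0593, limma). Cops6 did not pass on the deposited values and passed after median centring (adjusted p = 0.0320).

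Gps1, a scaffold subunit also called CSN1, was at 10.43, 10.17 and 10.02 in control arrays and at 9.23, 9.46 and 8.47 in deficient arrays. Every deficient array was below every control array. It fell by 1.15 (SE 0.29, 95% interval -1.81 to -0.50, adjusted p = 0.0343, limma). Cops2, which holds the cullin together with Cops4 at the ligase's RING end, was at 10.59, 10.68 and 10.49 in control arrays and at 10.45, 10.18 and 10.29 in deficient arrays. Its groups were separate by a narrow margin, and the difference of -0.28 (SE 0.21, 95% interval -0.74 to 0.18, adjusted p = 0.389, limma) turned positive under 3 of the 4 other scalings, at 0.22 to 0.31. Cops4 was at 9.26, 9.36 and 9.21 in control arrays and at 7.92, 9.05 and 9.0 in deficient arrays. Replicate 1 carried most of its difference of -0.62 (SE 0.31, 95% interval -1.33 to 0.09, adjusted p = 0.218, limma), which was -0.25 without that array.

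Cops3, a scaffold subunit, was at 9.15, 9.20 and 9.07 in control arrays and at 8.84, 9.28 and 6.98 in deficient arrays. Deficient replicate 3 stood far below the others, while replicate 2 was above every control. The difference was -0.77 (SE 0.51, 95% interval -1.91 to 0.37, adjusted p = 0.335, limma), and it was -0.08 without deficient replicate 3.

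Cops7a was at 8.97, 9.22 and 9.04 in control arrays and at 8.05, 7.94 and 7.76 in deficient arrays. It had the smallest p of the 9 subunits, and it fell by 1.16 (SE 0.21, 95% interval -1.63 to -0.69, adjusted p = 0.0106, limma). Cops7b, its alternative form, was at 7.57, 7.69 and 8.38 in control arrays and at 6.71, 6.50 and 7.22 in deficient arrays. The third array of either group was the highest, but the groups did not overlap. Cops7b fell by 1.07 (SE 0.29, 95% interval -1.73 to -0.41, adjusted p = 0.0454, limma). The difference between the forms on the same array changed by -0.09 between groups (exact two-sided permutation test, p = 0.6), with a range of -0.36 to 0.19 over other settings. The call of Gps1 was lost in 9 of 19 other settings, that of Cops7a in 7 and that of Cops7b in 11. Without control replicate 2 or control replicate 3 no subunit was called, and without control replicate 1 or deficient replicate 1 there was 1.

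Cops8, a small scaffold subunit, was at 8.59, 8.68 and 8.36 in control arrays and at 9.22, 9.26 and 8.2 in deficient arrays. Deficient replicates 1 and 2 were above every control and replicate 3 was below every control. The difference was 0.35 (SE 0.31, 95% interval -0.34 to 1.04, adjusted p = 0.475, limma). It kept its sign in all 19 other settings and passed with the arrays centred on their brighter genes, at 0.94 with an adjusted p of 0.0271. With median centring it was 0.17. The size rested on single arrays, at 0.17 without deficient replicate 2, 0.19 without deficient replicate 1 and 0.70 without deficient replicate 3, and it did not pass in any of these fits.

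**Figure D3:**
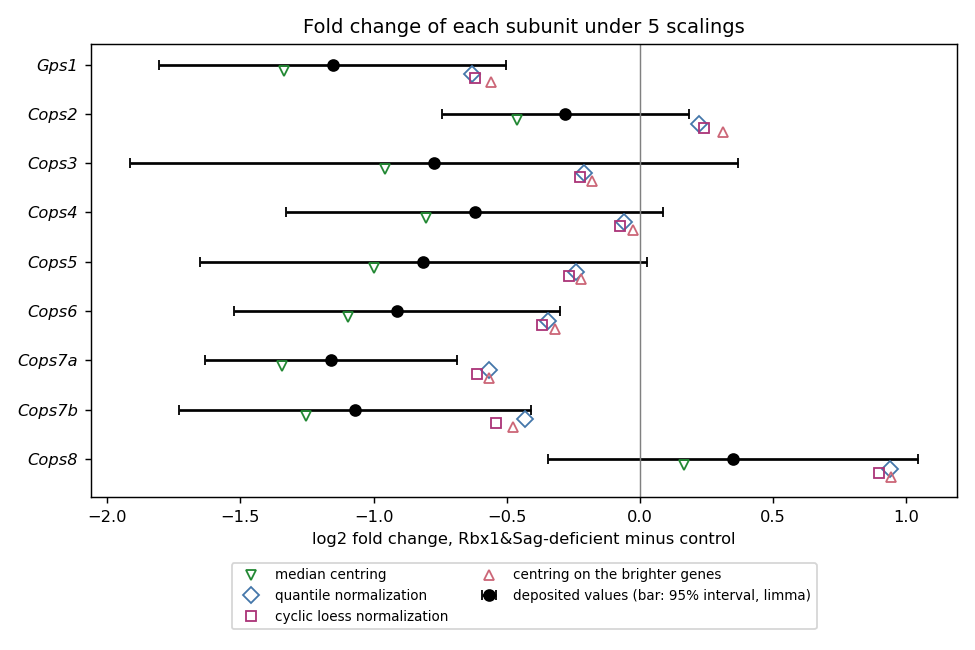
Difference between Rbx1&Sag-deficient and control arrays for each subunit, on the log2 scale. Filled points with 95% intervals from limma show the deposited values for every subunit, called or not. Open symbols show median centring, quantile normalization, cyclic loess and centring on the brighter genes. On the deposited values Gps1, Cops7a and Cops7b, which were called lower, lie at -1.15, -1.16 and -1.07, and Cops8 lies at 0.35.

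A constant added to an array cancels when a subunit is compared with the mean of the other 8 on the same array. This ratio shows unequal change among the RNAs of the subunits and not which subunit moved. Relative to the other 8, Cops8 stood 1.20 higher in the deficient cells on the log2 scale. Centred on the control mean, its values were 0.12, 0.04 and -0.15 in control arrays and 1.49, 1.31 and 0.79 in deficient arrays. The groups were separate on all 3 deficient arrays, replicate 3 included, where Cops8 itself was at its lowest. The exact two-sided permutation test gave p = 0.1, the smallest value that 3 against 3 allows, and 0.333 after adjustment over the 10 within-array tests. The difference ranged from 1.05 to 1.40 over 9 other settings.

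The ratios of Gps1 and Cops7a to the other 8 differed in the other direction. The mean of the other 8 includes Cops8 here, so these ratios are not independent of its difference. Gps1 was lower relative to the other 8 by a difference of -0.49, and Cops7a by -0.50, with separate groups for both (exact permutation p = 0.1, adjusted p = 0.333). Over the 9 other settings these differences ran from -0.57 to -0.34 and from -0.60 to -0.36. Cops2 was 0.49 higher relative to the others with overlapping groups (exact permutation p = 0.2, adjusted p = 0.5). The groups also overlapped for Cops3, Cops4, Cops5, Cops6 and Cops7b, at -0.07, 0.11, -0.11, -0.22 and -0.40. For Cops3, Cops4 and Cops5 the sign changed in at least 1 other setting.

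**Figure D4:**
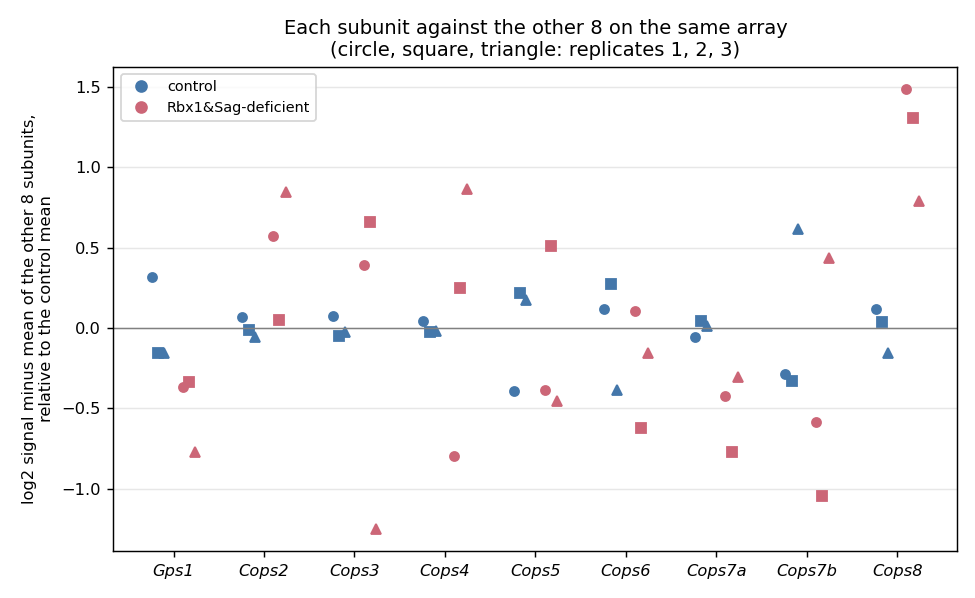
Each subunit minus the mean of the other 8 on the same array, in log2 units centred on the control mean, for 3 control and 3 Rbx1&Sag-deficient arrays. The deficient values of Cops8 are 0.79 to 1.49 and lie above all its control values, whereas those of Gps1 and Cops7a lie below theirs.

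The subunits' profiles over the 6 arrays were compared by their root mean square difference after centring each gene. The nearest pairs were Cops6 with Cops7a (0.245 in log2 units) and Gps1 with Cops7a (0.287). The farthest was Cops3 with Cops7b (0.973), and Cops7b with Cops8 was at 0.965. Outside the complex, the genes nearest to the mean profile of the 9 subunits among 9369 genes searched were Wac (0.0429), which encodes a WW domain adaptor, Dctn1 (0.0553), a dynactin subunit, and Klhl5 (0.0559), a Kelch repeat protein. In all, 482 genes lay within 0.2 of that profile. No shared role is read from this likeness. Nearest to Cops5 were Apaf1 (0.0826), the core of the apoptosome, Slc7a1 (0.110), a transporter of basic amino acids, and Entpd7 (0.143), a nucleotide hydrolase, with 51 genes within 0.2.

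On the deposited values, of 19 measured genes among cullins and their NEDD8 cycle, 2 fell, none rose and 17 did not pass, and the median difference was -0.53. The share that fell was 10.5%, beside 9.49% of all genes and 18.3% of the brighter genes. Uba3, the catalytic subunit of the NEDD8-activating enzyme, fell by 1.28 on the log2 scale (adjusted p = 0.0388). Senp8, a protease that matures NEDD8 and removes it from proteins other than cullins, fell by 1.25 (adjusted p = 0.0405). Ube2f, the NEDD8-conjugating enzyme that works with Sag, was at -0.79 (adjusted p = 0.0599), and Cul4a, a cullin that the complex acts on, was at -0.79 (adjusted p = 0.0827). Among 6 measured partners of the complex, 1 fell (16.7%), none rose and the median was -0.15. That gene was Cops9, an acidic small subunit found in the complex after the others, and it is not among the 9. Cops9 was at 14.17, 14 and 13.55 in control arrays and at 12.85, 12.96 and 11.77 in deficient arrays. The groups did not overlap, and it fell by 1.38 (SE 0.34, adjusted p = 0.0328, limma). Prkd1, a kinase of the protein kinase D family, was at 0.57 (adjusted p = 0.109) and was dim on all arrays. Csnk2a1, a catalytic subunit of casein kinase that binds the complex, was at -0.52 (adjusted p = 0.263). Usp15, a deubiquitinase that travels with it, was at -0.38 (adjusted p = 0.273).

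The proteasome lid and the translation initiation factor eIF3 are built from the same PCI and MPN domains. On the deposited values 1 of the 9 lid genes fell and none rose. That share of 11.1% stands beside 9.49% of all genes and 18.3% of the brighter genes called lower. All 9 lid differences were negative, with a median of -0.88. Differences were negative for 6838 of the 9747 brighter genes and for 9170 of all 19505 genes. Psmd12, a PCI subunit, fell by 1.11 (adjusted p = 0.0438). Psmd14, the lid deubiquitinase and the nearest relative of Cops5 there, was at -1.52 (adjusted p = 0.0636), Psmd13, a PCI subunit, at -0.87 (adjusted p = 0.0639), and Psmd7, the MPN partner of Psmd14, at -0.93 (adjusted p = 0.0914). The medians of the lid and of the COP9 signalosome were -0.88 and -0.81, and the difference between them was not tested. Of the 12 measured eIF3 genes none fell and 1 rose, beside 2.7% of all genes called higher, with a median of -0.33. The one that rose was Eif3j2, at 0.84 (adjusted p = 0.0423), whose near-identical copy Eif3j1 could share its probes. The other genes of smallest p were Eif3d, a cap-binding subunit (-0.79, adjusted p = 0.133), Eif3c, a core PCI subunit (-0.48, adjusted p = 0.169), and Eif3k (-0.49, adjusted p = 0.202). Among 6 other proteins with a metalloprotease-type MPN domain, 2 fell (33.3%) and none rose, with a median of -0.57. Prpf8, a spliceosome core protein whose MPN domain has lost the protease activity, fell by 1.09 (adjusted p = 0.0205), and Stambp, an endosomal deubiquitinase, fell by 0.99 (adjusted p = 0.0401). Mysm1, a histone H2A deubiquitinase, was at -0.58 (adjusted p = 0.106), and Brcc3, a deubiquitinase of the DNA damage response, at -0.53 (adjusted p = 0.175).

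The falls in these 5 lists depended on the scaling as those of the subunits did. With quantile normalization, cyclic loess or centring on the brighter genes, no gene of the 5 lists was called lower. Centring on the brighter genes called 2 of the partners and 1 of the other MPN proteins higher, where none rose on the deposited values. The median of the lid stayed negative, at -0.39, -0.36 and -0.29. The median of the eIF3 list turned positive, at 0.10, 0.12 and 0.26, and so did that of the partners, at 0.20, 0.22 and 0.44. Those of the NEDD8 cycle and of the other MPN proteins came to between -0.05 and 0.06. The 1 eIF3 gene called higher on the deposited values lost that call with median centring, when no eIF3 gene was called. The 9 subunits kept a negative median in all of these scalings, at -0.27 to -0.22 in those 3 and at -1.0 with median centring.

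**Figure D5:**
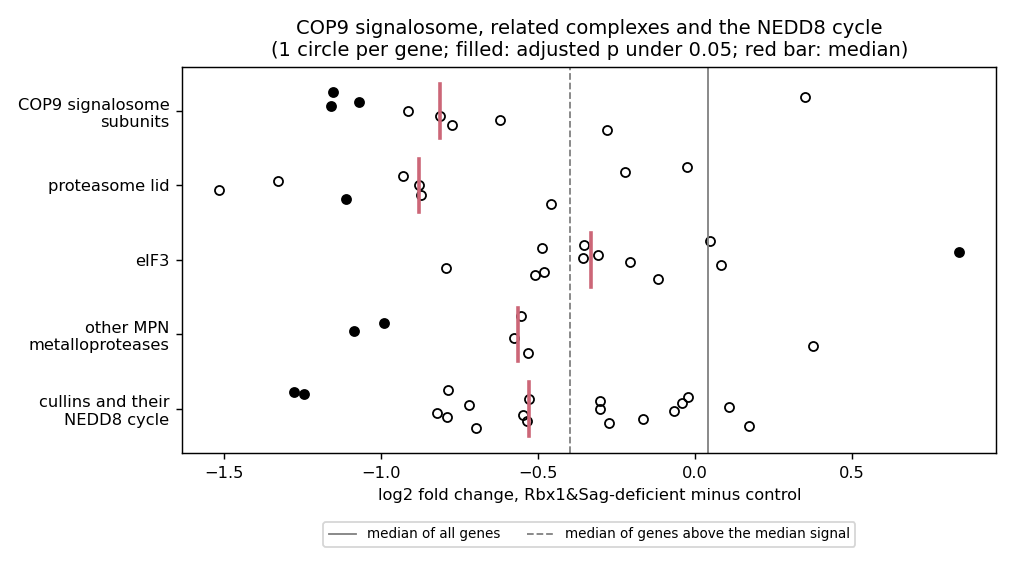
Differences between Rbx1&Sag-deficient and control arrays in the deposited log2 values, for every measured gene of the COP9 signalosome and of 4 related gene lists (proteasome lid, eIF3, other MPN metalloproteases, and cullins and their NEDD8 cycle), with each list's median as a bar and filled symbols where the adjusted p was under 0.05. Among the 5 lists drawn the medians run from -0.88 for the proteasome lid to -0.33 for eIF3, which turned positive in 3 other scalings, beside a median of -0.40 over the brighter genes.

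Markers of other cell types also differed between the groups on the deposited values, and they were not examined under other scalings. In the CD8 T and NK list 2 of 5 genes fell (Nkg7 and Klrb1c), in the B cell list 1 of 3 (Cd79b) and in the myeloid list 3 of 6 (Lyz2, Spi1 and Fcer1g), while no marker rose. Over all genes 9.49% were called lower and 2.7% higher. The list means were 5.36 to 5.67 in control and 4.34 to 4.89 in deficient arrays for CD8 T and NK, 4.56 to 4.61 and 4.01 to 4.17 for B cells, and 3.74 to 4.52 and 3.17 to 3.34 for myeloid cells. Cd8a, Cd79a and Csf1r were dim on all 6 arrays, at 3.30 to 3.94, 3.70 to 3.96 and 3.26 to 4.26. Cd8b1 was brighter, at 8.42 to 9.09 over the 6 arrays, and did not pass. Some of the markers that fell were above these dim ones in control arrays. Nkg7 was at 7.09 to 8.18 in control and 3.99 to 5.93 in deficient arrays, Cd79b at 6.95 to 7.19 and 5.08 to 5.42, and Spi1 at 4.66 to 6.25 and 2.82 to 3.78. In each of the 3 lists 1 marker had every deficient array above every control array, the pattern of 15.2% of all genes. These were Ncr1 (0.32), Ms4a1 (0.37) and Itgam (0.48), which were dim and did not pass. Neither of 2 measured erythroid markers passed. The part of these markers in the subunits' differences was not tested.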

How the data were processed

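RNA from 6 pools of sorted Treg cells was hybridised to Clariom S mouse arrays, and the authors deposited 1 table of log2 signals, which was used as deposited. Affymetrix Expression Console 1.4 is named in the submitters' processing notes. No source used here gives its summarisation method, annotation release or genome build, and the number of arrays limits the precision. Of 22206 probe sets, 19572 had 1 symbol in the platform annotation, 0 had several and 2634 had none. Each symbol kept its brightest probe set (mean over the 6 arrays), which left out 67 dimmer copies and gave 19505 genes, all present in a RefSeq gene table (GRCm38.p6). A probe set that keeps signal from other RNA, or lies outside a deleted part, can hide a change. Groups were compared with limma 3.58.1 in R 4.3.3 (lmFit and eBayes, two-sided, Benjamini-Hochberg over 19505 genes, adjusted p under 0.05), after the scripts were tested on simulated data. Single values were compared by an exact permutation test over arrays, for which the smallest p is 0.1. The text names the 9 subunits, Rbx1, Rnf7, up to 4 genes of smallest p in every other list, and the 3 genes whose profile was nearest to the subunits' mean and to Cops5. The members and lists were chosen with earlier results of these data known. Alternatives changed the scaling, moderation, array weights, the filter on dim genes, the choice of probe set, the test, the replicate block and the arrays used.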

Additional observations from a re-analysis of the deposited data

How the results depend on the processing

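Of the 9 subunits, 3 were called lower and 0 higher on the deposited values. The count lower was 0 with centring on the brighter genes, with quantile normalization and with cyclic loess. It was 0 to 3 when 1 array was left out. With the methods' t-test on log2 or linear values it was also 0, after Benjamini-Hochberg adjustment. The paper mentions no such adjustment, so this 0 is not the count by its own criteria. Unadjusted calls of this t-test were not counted. The count higher was 1 with centring on the brighter genes and 0 whichever array was left out. Over all genes, 1851 were called lower. This count was 910 with centring on the brighter genes, 733 with quantile normalization, 876 with cyclic loess, 23 and 20 with the methods' t-test on log2 and linear values after Benjamini-Hochberg adjustment, and 544 to 2611 with 1 array left out. Over all genes, 527 were called higher, against 279 with median centring, 6966 with centring on the brighter genes, 324 when only genes above the median signal were tested (fewer genes tested), 7 and 6 with the methods' t-test, and 76 to 1012 with 1 array left out. The difference of Cops2 reversed to 0.31, 0.22 and 0.24 with centring on the brighter genes, quantile normalization and cyclic loess, and that of Rnf7 to 0.023 with centring on the brighter genes. Apart from the arrays and genes left out, the cause was not tested.

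Replicate numbers were checked as a possible pairing. Deviations from the group means correlated at 0.00879, 0.109 and 0.0209 between arrays of the same number. Between arrays of different numbers they correlated at -0.133 to 0.111. With 3 arrays per group these values cannot settle whether the arrays were paired. With a replicate block 3 subunits were lower and 0 higher, and 2010 genes were lower and 534 higher over all genes. The block changed no subunit's call. With 3 arrays per group the intervals of Cops3, Cops4, Cops5 and Cops6 include falls as large as those of the called subunits, and a difference that did not pass is not shown to be absent.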
